A study of Mus musculus with 5 samples.

Results

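Adipokines are proteins that fat cells release into blood. The 8 adipokine genes described here are Adipoq, Lep, Retn, Cfd, Rbp4, Rarres2, Sncg and Agt, taken by gene symbol from the 32285 genes of single-nuclei RNA sequencing (snRNAseq) of mouse interscapular brown adipose tissue (iBAT). The assay counts unique molecular identifiers (UMIs), each standing for 1 captured RNA molecule, in sorted nuclei. The data are 5 libraries in 2 matrices. One matrix joins iBAT of WT and Ucp1-STX4KO mice, both 3 months old. The Ucp1-STX4KO mice carried floxed STX4 alleles and Ucp1-Cre, a recombinase driven by the Ucp1 promoter and so active in brown adipocytes. The genotype label of the other mice is control (WT). All mice of the study were kept on the C57BL/6J background. The aging matrix joins iBAT of C57BL/6J mice of 2, 12 and 24 months. All mice were male, each condition has 1 library, and the methods do not say how mice were divided among libraries. Within a matrix the libraries are told apart by the barcode suffix, and no label ties this suffix to a genotype or an age. Libraries are therefore named by suffix, values are compared between nuclei of the same matrix, and no comparison of genotypes or ages and no p-value is given.

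Brown adipocytes burn lipid for heat through UCP1 in their mitochondria, and white adipocytes are the larger source of circulating adipokines. Adiponectin (Adipoq) and adipsin (Cfd, complement factor D) are made in both kinds of fat cell after differentiation, while leptin (Lep) reports fat stores to the brain and is typical of lipid-laden white adipocytes. Resistin (Retn) is an adipocyte product of rodents. Retinol-binding protein (Rbp4) carries vitamin A in plasma, chemerin (Rarres2) is a chemoattractant for cells with the receptor CMKLR1, and angiotensinogen (Agt) is the precursor of angiotensin. Sncg codes for gamma-synuclein, a small cytosolic protein of neurons and fat. Cyp2e1, a cytochrome P450, and Aldh1a1, which oxidises retinaldehyde, mark a subset of adipocytes in brown fat and are used below to divide the adipocyte nuclei.

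The genes lie apart in the genome. In GRCm38, Adipoq is at chr16:23146536-23158028, Lep at chr6:29060220-29073877, Retn at chr8:3655770-3660110, Cfd at chr10:79890853-79892655, Rbp4 at chr19:38116629-38125281, Rarres2 at chr6:48569696-48572789, Sncg at chr14:34370274-34374789 and Agt at chr8:124556534-124569706. The first 4 are on the plus strand and the other 4 on the minus strand, and all 8 are protein coding. Rarres2 overlaps Lrrc61, which runs on the opposite strand. Adipoq, Lep, Retn and Cfd are the members with 200 or more UMIs that were past 2-fold between kinds of adipocyte nuclei in at least 1 library below, so the 150 bases before their RefSeq start sites are shown, on the plus strand of GRCm38.p6. Capitals mark the letters TTGCGCAA, the palindrome bound by C/EBP factors of adipocyte differentiation, TATAA on the gene strand, and CCAAT on either strand, where its reverse complement reads ATTGG. The stretches are chr16:23146386-23146535 for Adipoq, chr6:29060071-29060220 for Lep, chr8:3655620-3655769 for Retn and chr10:79890703-79890852 for Cfd.
Adipoq: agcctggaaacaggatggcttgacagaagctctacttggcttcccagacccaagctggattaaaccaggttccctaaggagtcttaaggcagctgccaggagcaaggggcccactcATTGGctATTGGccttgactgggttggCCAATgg
Lep: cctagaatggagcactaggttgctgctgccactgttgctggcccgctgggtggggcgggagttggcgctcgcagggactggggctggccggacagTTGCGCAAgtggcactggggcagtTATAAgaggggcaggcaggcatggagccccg
Retn: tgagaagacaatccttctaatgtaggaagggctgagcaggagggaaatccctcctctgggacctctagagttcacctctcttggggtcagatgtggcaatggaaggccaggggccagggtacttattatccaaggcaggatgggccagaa
Cfd: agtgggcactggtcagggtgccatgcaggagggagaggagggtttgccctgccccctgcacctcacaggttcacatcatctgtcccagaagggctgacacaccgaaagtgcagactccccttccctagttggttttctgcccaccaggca

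The Lep stretch holds TTGCGCAA 55 bases before the start and TATAA 31 bases before it. TTGCGCAA is rare, in 37 of 32851 promoter stretches of the same length (0.1126%), while TATAA is in 9.9936% of them. The Adipoq stretch holds CCAAT 3 times, a motif that 24.4954% of the stretches carry at least once. None of the 3 strings occurs in the Retn or Cfd stretch. Promoter entries matched 7 of the 8 members. TATAA also occurs 28 bases before 1 of the Rbp4 starts and 30 bases before that of Agt.

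The WT and Ucp1-STX4KO matrix holds 20307 nuclei and the aging matrix 30000 barcodes, of which 27842 passed limits of 200 UMIs and 100 genes. Median UMIs per barcode were 5998 and 3284.5 for suffixes 1 and 2 of the former and 891 to 1719.5 across the aging suffixes. Stx4a, the gene deleted in Ucp1-STX4KO mice, was at 60.005 and 49.8 counts per 1000000 UMIs (CPM) in adipocyte nuclei of suffixes 1 and 2, so its level names no genotype here. Between 23 and 45 barcode sequences recur in a pair of libraries of a matrix and were read as separate nuclei. Nuclei were gated by marker lists that hold no adipokine gene. The adipocyte list, whose genes act in lipid droplets and fatty acid use, took 60 or more of its UMIs per 10000 UMIs of the nucleus, and nuclei that passed more than 1 gate were left out. By this gate 15280 nuclei of the WT and Ucp1-STX4KO matrix were adipocyte nuclei, 10292 with suffix 1 and 4988 with suffix 2. The aging matrix gave 1573, as 650, 674 and 249. All 8 adipocyte markers were detected in every library, with Acsl1 in 96.8 to 100.0% of adipocyte nuclei and Pparg in 97.8 to 99.8%. These are genes of the gate itself, so their detection follows from the selection and is no independent check of it. Ucp1 was found in 94.6 and 70.7% of them by suffix in the former matrix and in 53.4 to 88.6% in the aging matrix, at 1021 and 854 CPM and at 537 to 1784 CPM. Nuclei of other types held Ucp1 as well, at 17.2 to 47.9% of the adipocyte CPM by type in suffix 2 of the former matrix and 2.39 to 14.3% in the aging matrix.

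Adipoq was the member whose adipocyte interval lay above those of all other types in both matrices. Its level in CPM of the summed nuclei was 195 (exact Poisson 95% interval 192 to 198) in suffix 1 and 124 (120 to 129) in suffix 2. In UMIs per nucleus this was 1.36 and 0.701, and 65.2 and 36.1% of the adipocyte nuclei held at least 1 Adipoq UMI. The share was 7.91% in macrophage-gated nuclei of suffix 2, at a median depth of 2784 UMIs against 4707.5, and 2.63 against 10.8% after both were thinned to 1000 UMIs. Suffix 2 was thus lower, at 0.638 times suffix 1 (exact conditional binomial 95% interval 0.615 to 0.662), while Ucp1 was at 0.837 times. The intervals here and below cover counting error only, since 1 library per condition leaves the spread between mice unknown. In the aging matrix Adipoq was at 220 (198 to 243), 155 (136 to 176) and 84.2 (63.9 to 109) CPM in suffixes 1, 2 and 3, and suffix 3 was at 0.383 times suffix 1 (0.285 to 0.506). Ucp1 had another order there, with 1175, 1784 and 537 CPM, so that the aging suffix with the most Ucp1 was not the one with the most Adipoq.

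Adipoq was lower than in adipocyte nuclei in every other type with 50 or more nuclei of a suffix. In suffix 2 of the WT and Ucp1-STX4KO matrix it was at 27.7 CPM (21.3 to 35.5) in macrophage-gated nuclei, 32.1 (25.3 to 40.3) in fibroblast or progenitor nuclei, 72.4 (48.5 to 104) in endothelial nuclei and 20.1 (13.6 to 28.5) in skeletal muscle nuclei. These levels stand beside those of Ucp1, a gene that such cells should lack. Ucp1 in fibroblast or progenitor nuclei was 22.9% of its adipocyte level in the same library and Adipoq 25.8%, and in macrophage-gated nuclei they were 25.6 and 22.3%, with overlapping intervals. Endothelial nuclei of the aging matrix held Ucp1 at 2.39, 13.7 and 8.49% of the adipocyte level by suffix and Adipoq at 1.21, 20.7 and 10.7%, where the intervals were apart in suffix 2 alone. A percentage at or under that of Ucp1 is not read here as expression by that type. The part of free RNA in droplets, or of nuclei caught together, in these levels was not tested. The 2158 aging barcodes under the lower limits, all of suffix 1, held Adipoq at 21.1% of the adipocyte level and Ucp1 at 10.2%, with overlapping intervals.

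The count of members whose adipocyte interval lay above those of all other types was 2 of the 6 that reached 200 UMIs in the WT and Ucp1-STX4KO matrix. They were Adipoq and Rbp4, against 5.97% of all genes tested. In suffix 2 alone the count was 1, Adipoq, since the Rbp4 interval there overlapped those of types with few UMIs. For the aging matrix Adipoq and Cfd did so, 2 of 4 with 200 UMIs in the gated nuclei, against 8.47% of all genes. For the WT and Ucp1-STX4KO matrix shares of UMIs are given by library, because adipocyte nuclei held 94.5% of all UMIs of suffix 1 and 70.5% of suffix 2. In suffix 2 they held 91.5% of Lep, 89.6% of Retn, 87.1% of Adipoq, 81.9% of Rbp4 and 79.7% of Cfd UMIs, and in suffix 1 between 95.7 and 97.0% of each of these genes. Of the aging matrix, with its 3 suffixes pooled, they held 7.37% of all UMIs. They held 50.4% of Retn (49 of these 64 UMIs in suffix 1), 46.7% of Lep, 39.6% of Adipoq, 29.0% of Rbp4 and 25.7% of Cfd UMIs. All these shares are above that of the UMIs in all, which is not so of Rarres2, with 70.6 and 37.7% in suffixes 1 and 2 and 1.33% in the aging matrix. For Sncg the share was 13 of 15 UMIs in suffix 1, 79.5% in suffix 2 and 3.58% in the aging matrix, and for Agt 9 of 13 UMIs over both suffixes and 2 of 29 in the aging matrix.

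**Figure D1:**
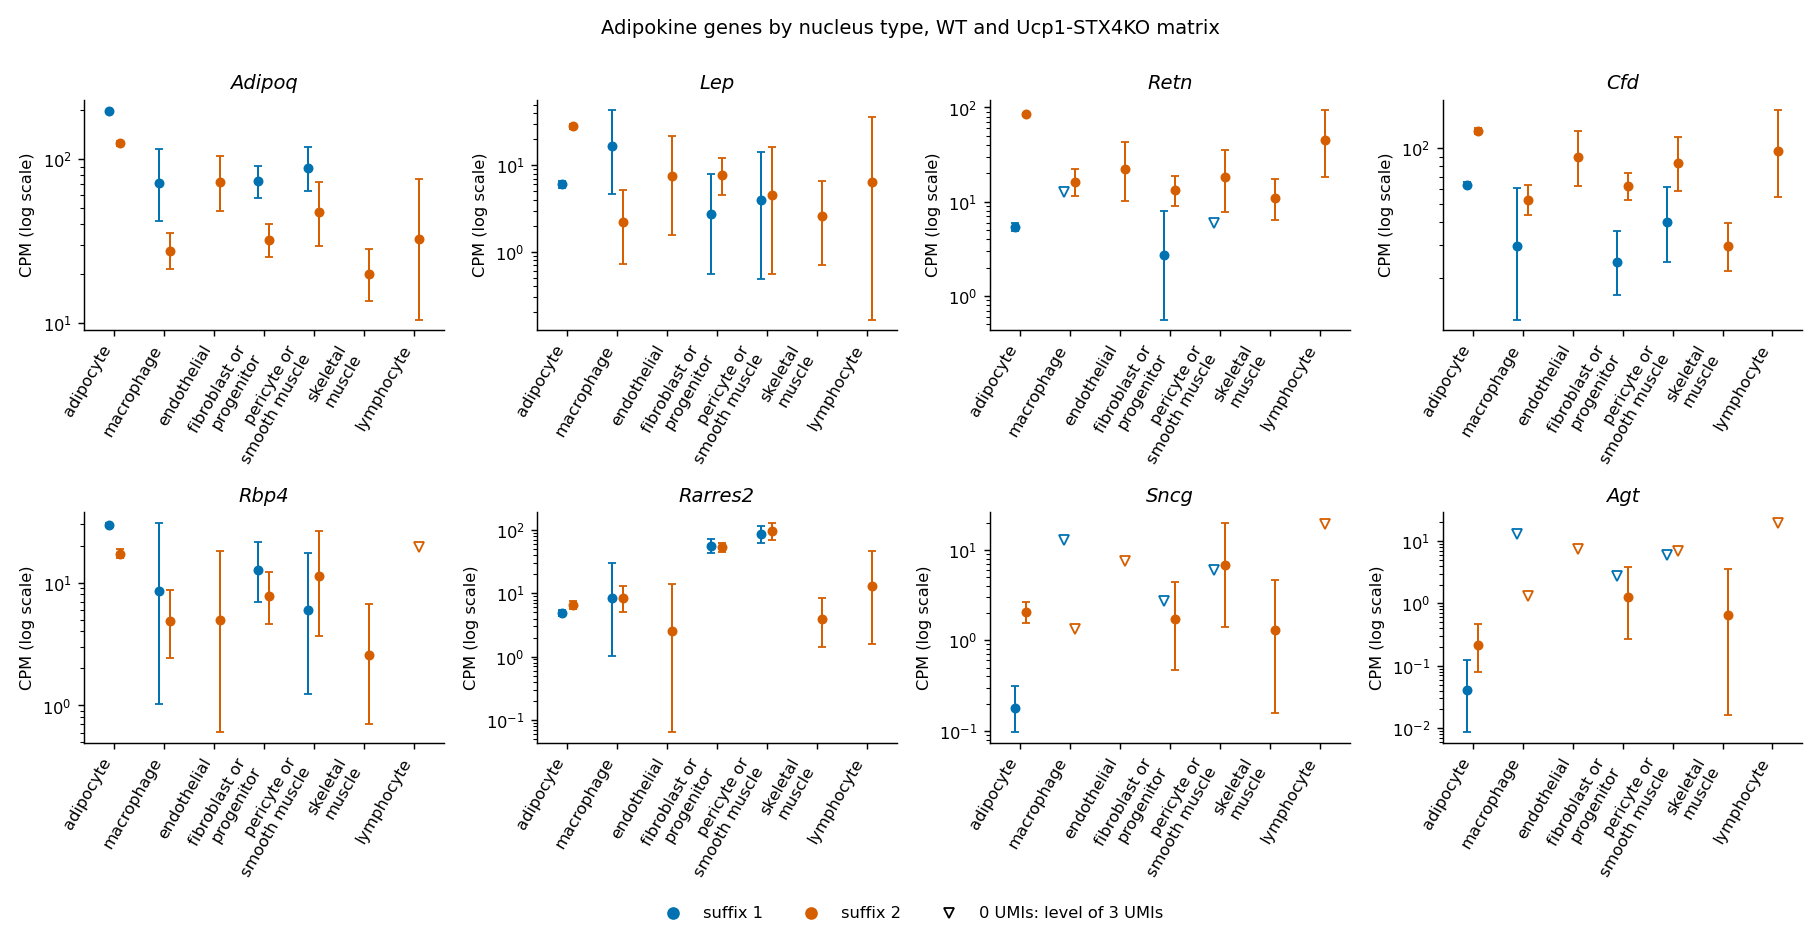
CPM of the 8 adipokine genes (log axes) by gated nucleus type in the WT and Ucp1-STX4KO matrix, 1 point per barcode suffix with its exact Poisson 95% interval, for types with 50 or more nuclei in that suffix. Open triangles stand for 0 UMIs, drawn at the level of 3 UMIs. Retn in adipocyte nuclei is at 5.36 CPM in suffix 1 and 84.4 in suffix 2, and Rarres2 is higher in fibroblast or progenitor and pericyte nuclei than in adipocyte nuclei of either suffix.

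Among the members with 200 UMIs, Lep and Retn differed most between suffixes 1 and 2 of the WT and Ucp1-STX4KO matrix. Lep was at 6.01 CPM (5.46 to 6.61) in adipocyte nuclei of suffix 1 and 28.1 (26.2 to 30.1) in suffix 2, a ratio of 4.67 (4.15 to 5.27), and 3.52 and 8.68% of the nuclei held a UMI. Retn was at 5.36 CPM (4.84 to 5.92) and 84.4 (81.1 to 87.9), a ratio of 15.8 (14.1 to 17.6), with 2.14 and 20.2% of nuclei positive. They are the 2 of 6 members with 200 UMIs that differed at least 2-fold between the suffixes, where 30.1% of all genes did. Cfd, at 63.5 (61.7 to 65.4) and 124 (120 to 128) CPM, had a ratio of 1.95 (1.87 to 2.04). Several brown fat genes also moved between these libraries. Ppargc1a, a coactivator of mitochondrial genes, was at 776 and 11912 CPM and Dio2, which activates thyroid hormone, at 64.8 and 599 CPM, against Cidea, a lipid droplet protein, at 1269 and 701 CPM. Their part in the difference of the adipokine genes was not tested.

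Lep and Retn did not follow each other in the aging matrix. Lep was at 16.8 (11.2 to 24.1), 8.82 (4.82 to 14.8) and 39.2 (25.8 to 57.0) CPM in suffixes 1, 2 and 3, with 27 UMIs in 249 nuclei of suffix 3. Retn was at 28.4 (20.98 to 37.5), 6.30 (3.02 to 11.6) and 7.26 (2.36 to 16.9) CPM. Suffix 3 therefore had the highest Lep level, at 4.45 times suffix 2 (2.25 to 9.17), and suffix 1 the highest Retn level, with suffix 2 at 0.222 times suffix 1 (0.100 to 0.444). Retn in suffixes 2 and 3 rests on 10 and 5 UMIs, and their intervals overlap. Cfd, at 135 (118 to 153), 133 (116 to 152) and 47.9 (33.0 to 67.3) CPM, was like Adipoq lowest in suffix 3, at 0.355 times suffix 1 (0.239 to 0.513), while suffixes 1 and 2 did not differ beyond counting error. Of the members only Adipoq and Cfd reached 200 UMIs in these nuclei, and both differed at least 2-fold between the highest and lowest suffix, against 17.3% of all genes.

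**Figure D2:**
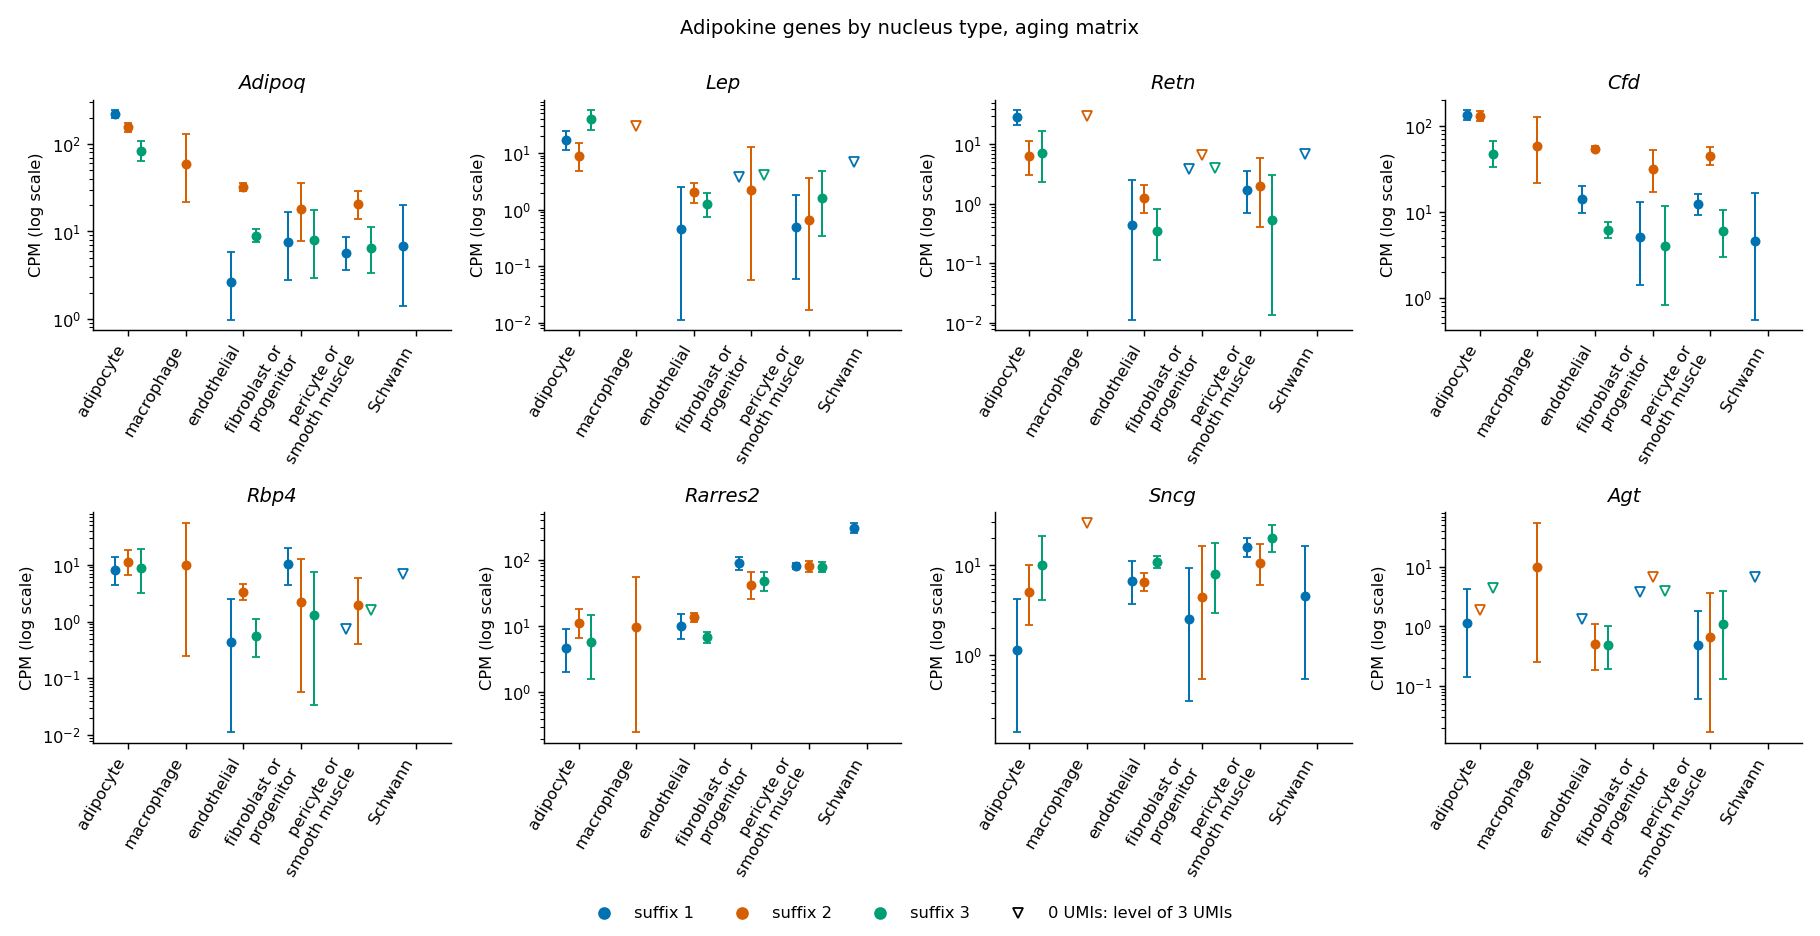
CPM of the 8 adipokine genes (log axes) by gated nucleus type in the aging matrix, 1 point per barcode suffix with its exact Poisson 95% interval, for types with 50 or more nuclei in that suffix. Open triangles stand for 0 UMIs, drawn at the level of 3 UMIs. Adipoq and Cfd in adipocyte nuclei are lowest in suffix 3, at 84.2 and 47.9 CPM, and Rarres2 is highest in Schwann nuclei, at 309 CPM in suffix 1.

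The adipocyte nuclei were next divided by Cyp2e1 and Aldh1a1, neither of which is among the 8 genes. A nucleus with at least 1 UMI of either was put in the class with them. In suffix 2 this class held 1881 nuclei against 3107 without, and in suffix 1, where Cyp2e1 was at 6.87 CPM against 246 in suffix 2, it held 353 (3.43%) against 9939. Of the class nuclei, 771 in suffix 2 and 255 in suffix 1 held exactly 1 UMI of these genes. Nuclei of other types in suffix 2 held Cyp2e1 at 12.7 to 42.2% of the adipocyte level by type. A stray UMI could thus place a nucleus in the class, and the part of free RNA in it was not tested. Pooled over suffixes 2234 nuclei were compared with 13046, and 3 of the 6 members with 200 UMIs, Lep, Retn and Cfd, were at least 2-fold higher in the class with the same direction in each suffix. Among all 12155 genes tested 4.36% were so. None of the 6 was at least 2-fold lower, where 6.4% of the genes were. The median ratio was 2.06 over the 6 members and 0.854 over all genes tested. Since 1881 of the 2234 nuclei with class UMIs are from suffix 2, a pooled ratio also carries the difference between libraries, and the values within each suffix follow.

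Among the members with 200 UMIs, Retn had the highest ratio in each suffix, though in suffix 2 its interval overlapped that of Lep. In suffix 1 it was at 58.7 CPM in nuclei with Cyp2e1 or Aldh1a1 UMIs and 2.96 in those without, a ratio of 19.8 (16.1 to 24.3). In suffix 2 it was at 143 and 35.8 CPM, a ratio of 3.99 (3.62 to 4.39). The share of nuclei with a Retn UMI was 15.6 against 1.66% in suffix 1 and 37.3 against 9.95% in suffix 2. The 2 classes differed in depth, with median UMIs of 5885 and 4092 per nucleus in suffix 2, so nuclei were also thinned to 1000 UMIs. At that depth 11.5% (Clopper-Pearson 95% interval 10.1 to 13.1%) of the class in suffix 2 and 3.55% (2.88 to 4.32%) of the rest held a Retn UMI. In macrophage-gated nuclei of suffix 2, thinned alike, the share was 1.61% for Retn and 0.146% for Lep.

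Lep was at 46.1 CPM in the class and 13.1 outside it in suffix 2, a ratio of 3.52 (2.99 to 4.15), and at 10.96 and 5.79 CPM in suffix 1, a ratio of 1.89 (1.29 to 2.69). Thinned to 1000 UMIs, 4.63 against 1.34% of the nuclei of suffix 2 held a Lep UMI. For Cfd the ratios were close to each other in the libraries, at 2.19 (1.97 to 2.42) in suffix 1 and 2.06 (1.93 to 2.21) in suffix 2, from 132 against 60.4 CPM and 173 against 83.7 CPM.

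For Adipoq the pooled ratio hid a difference within suffix 2. Its pooled levels were 186 and 173 CPM, a ratio of 1.08, but it was at 177 against 80.4 CPM in suffix 2, a ratio of 2.20 (2.06 to 2.36), and at 225 against 193 CPM in suffix 1, a ratio of 1.16 (1.08 to 1.26). Among the 905 adipocyte nuclei with at most 2000 UMIs and 3000 genes, the upper limits stated in the methods, the pooled ratios were 1.81 (1.05 to 3.03) for Retn and 1.38 (0.971 to 1.93) for Cfd, under 2-fold, and 2.67 (1.01 to 6.75) for Lep. At 1000 UMIs per nucleus Adipoq of suffix 2 was at 154 against 93.7 CPM, which is under 2-fold. In suffix 2 alone Adipoq, Lep, Retn and Cfd were past 2-fold, 4 of 5 members with 200 UMIs against 3.77% of genes, and 0 were 2-fold lower against 1.88%. In suffix 1 alone Retn and Cfd passed, 2 of 6 against 1.72%, and 0 were 2-fold lower against 0.644%. With the minimum at 50 UMIs, Lep, Retn, Cfd and Sncg passed in the pooled matrix, 4 of 7 members against 5.25% of genes. The same minimum gave 2 of 6 against 4.43% in suffix 1 and 5 of 7 against 4.4% in suffix 2. No member was 2-fold lower at this minimum, against 7.38% of genes in the pooled matrix, 3.31% in suffix 1 and 2.77% in suffix 2. Rbp4 had a ratio of 0.967 (0.772 to 1.20) in suffix 1 and 1.25 (1.04 to 1.50) in suffix 2, against 0.787 when pooled. Rarres2 was at 1.68 (1.07 to 2.52) and 1.37 (1.01 to 1.84). Sncg rested on 39 UMIs in the class and 32 outside it, at 2.11 (1.21 to 3.80) in suffix 2. Agt had 3 and 6 UMIs and allows no comparison.

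Ucp1 went the other way in the same nuclei, at 0.443 of the level outside the class in suffix 2 and 0.842 in suffix 1. The marker lists give what else moved. In suffix 2 the adipocyte list was at 204 against 155 UMIs per 10000 (ratio 1.32), the brown adipocyte list at 114 against 212 (0.535), the macrophage list at 0.430 against 0.512, the fibroblast list at 0.640 against 0.633 and the skeletal muscle list at 0.862 against 1.126. Ppargc1a, a gene of the brown adipocyte list, held most of the UMIs of that list in adipocyte nuclei of suffix 2, so the ratio of 0.535 weighs that gene most. The neuron list was 3.80 times higher in the class (1.94 to 7.99), at 0.0297 against 0.00783 UMIs per 10000 with 2 of its 5 genes detected, and its part in the ratios was not tested. The mesothelial list had 0 UMIs in the class. The endothelial, pericyte, lymphocyte and Schwann lists were at 0.109 to 0.440 in the class and had ratios of 0.772 to 1.19. In suffix 1 the macrophage list was at 0.145 against 0.0599 and the fibroblast list at 0.651 against 0.202, which is higher in the class while still under 1 UMI per 10000. The part of those nuclei in the suffix 1 ratios was not tested. The brown adipocyte list of suffix 1 was at 48.6 against 54.0 UMIs per 10000 (ratio 0.902), and pooled over suffixes its ratio was 1.22.

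The levels also differed with the number of class UMIs in the nucleus, and Retn and Adipoq of suffix 2 were higher at each step than at the one before. In suffix 2, Retn was at 35.8 CPM in nuclei with 0 UMIs of Cyp2e1 and Aldh1a1, 56.4 with 1, 127 with 2, 180 with 3 to 5, 210 with 6 to 10 and 220 with 11 or more. Adipoq was at 80.4, 116, 180, 194, 216 and 241 CPM over the same steps and Cfd at 83.7, 109, 162, 208, 221 and 221. Lep was at 13.1, 22.8, 54.6, 57.8, 48.8 and 70.1 CPM. Ucp1 went from 1140 to 178 CPM, and in the nuclei with 1 class UMI it was at 982 CPM. Deeper nuclei are over-represented at the top of this range, with median UMIs from 4092 in the lowest step to 9342 in the highest, and CPM is relative to that depth. In suffix 1, Retn was at 2.96, 20.7, 77.9, 178, 166 and 130 CPM, where the last 2 steps hold 12 nuclei each.

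**Figure D3:**
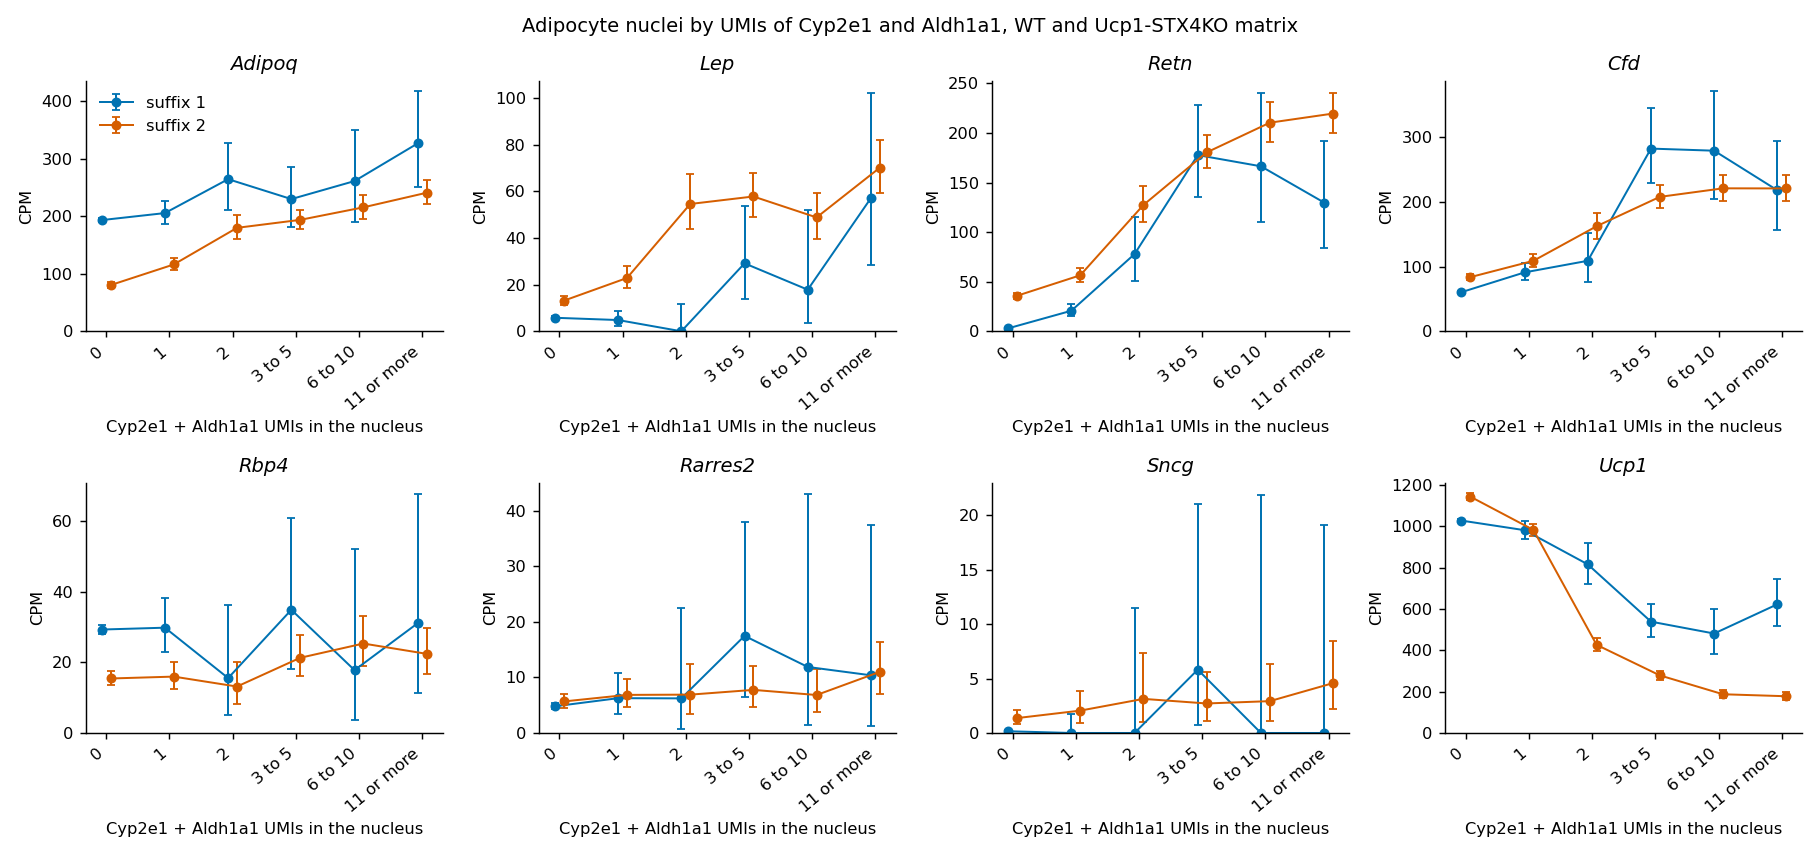
CPM of 7 adipokine genes and Ucp1 (linear axes from 0) in adipocyte nuclei of the WT and Ucp1-STX4KO matrix, by the number of Cyp2e1 and Aldh1a1 UMIs in the nucleus. Points are sums over the nuclei of a step in 1 barcode suffix and bars are exact Poisson 95% intervals. In suffix 2, Retn goes from 35.8 to 220 CPM and Ucp1 from 1140 to 178 CPM, and the upper steps of suffix 1 hold few nuclei.

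Nuclei were also divided by which of the class genes they held. In suffix 1, Retn was at 77.0 CPM (64.5 to 91.4) in nuclei with Cyp2e1 UMIs only and 13.96 (7.81 to 23.0) in those with Aldh1a1 UMIs only, against 2.96 (2.57 to 3.40) with neither. Lep had the other order there, at 2.92 CPM (0.948 to 6.81, 5 UMIs) with Cyp2e1 only and 16.8 (9.93 to 26.5) with Aldh1a1 only, against 5.79 (5.24 to 6.39) with neither. In suffix 2, Lep was at 30.6 (27.0 to 34.6) with Cyp2e1 only and 80.5 (65.3 to 98.2) with Aldh1a1 only, and Retn at 101 (93.9 to 108) and 169 (147 to 194), so both genes were higher with Aldh1a1 only and the order of Retn was not that of suffix 1. In the 388 nuclei of suffix 2 with both, Retn was at 244 CPM and Lep at 73.6, and 66.5% held a Retn and 32.0% a Lep UMI.

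In suffix 1 Retn UMIs sat in few nuclei. There the top 1% of adipocyte nuclei, 103 nuclei, held 69.7% of all Retn UMIs, against 6.01% of Adipoq, 12.0% of Cfd and 40.2% of Lep UMIs. This did not hold in suffix 2, where the top 1% held 20.3% of Retn, 32.2% of Lep, 26.7% of Rbp4, 42.5% of Rarres2, 12.4% of Cfd and 11.2% of Adipoq UMIs. Such a share also depends on how many UMIs a gene has, and Retn had 386 in suffix 1 against 2374 in suffix 2. A single nucleus held up to 22 Retn UMIs. The variance of Retn UMIs over nuclei was 4.20 and 3.99 times their mean in suffixes 1 and 2, against 1.72 and 2.42 times for Adipoq, so the Poisson intervals of a sum are too narrow for such genes. In 26.2% of the 15280 adipocyte nuclei none of the 8 genes had a UMI, 41.7% had UMIs of 1 and 1.68% of 4 of them. Only 5 nuclei had UMIs of 6 members, and none of 7 or 8. Of the nuclei with Cyp2e1 or Aldh1a1 UMIs, 8.59% held UMIs of 4 members.

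Members met in the same nuclei to an extent that differed by library. In suffix 2, nuclei with a Retn UMI had Lep at 65.2 CPM against 14.4 in those without, a ratio of 4.52 (3.91 to 5.24), Adipoq at 2.15 times (2.01 to 2.30) and Cfd at 1.96 times (1.83 to 2.10). Those nuclei were deeper, with a median of 6617.5 UMIs against 4319. In suffix 1 the ratios given Retn were 2.02 (1.25 to 3.10) for Lep, 1.39 (1.27 to 1.52) for Adipoq and 2.49 (2.20 to 2.80) for Cfd. Nuclei with an Adipoq UMI had Lep at 2.49 times (2.14 to 2.90) in suffix 2 and 0.974 times (0.790 to 1.21) in suffix 1, so this pair was tied in 1 library and not detectably in the other. They were deeper than the rest, with medians of 6257.5 against 3955.5 UMIs in suffix 2 and 6752 against 5277 in suffix 1. The part of depth and of the Cyp2e1 or Aldh1a1 class in these ratios was not tested.

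The aging matrix had 76 nuclei with Cyp2e1 or Aldh1a1 UMIs against 1497 without, too few to divide by suffix under the minimum of 50 nuclei. Retn was at 147 CPM (43 UMIs) against 5.66 (21 UMIs), a ratio of 26.0 (15.1 to 46.1). Cfd was at 383 against 98.3 CPM, a ratio of 3.90 (3.12 to 4.83), and Lep at 44.5 against 15.4, a ratio of 2.90 (1.45 to 5.36). Adipoq was at 1.47 times (1.13 to 1.88). With only Adipoq and Cfd at 200 UMIs, 1 of 2 members, Cfd, passed 2-fold, against 1.77% of genes, and 0 were 2-fold lower, against 2.55%. At a minimum of 50 UMIs, Lep, Retn and Cfd passed, 3 of 4 members, against 3.12% of genes, and 0 were 2-fold lower, against 8.01%. Ucp1 was at 0.667 times, and 47 of the 76 nuclei had suffix 1, where Retn was also highest.

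Cfd was above the Ucp1 percentage in several other types. In suffix 2 of the WT and Ucp1-STX4KO matrix it was at 62.6 CPM in fibroblast or progenitor nuclei, 50.4% of its adipocyte level (interval of the ratio 0.424 to 0.595), where Ucp1 was at 22.9% and Cyp2e1 at 18.3%. In macrophage-gated nuclei it was at 42.6% (ratio 0.352 to 0.511) against 25.6% for Ucp1. Endothelial nuclei of the aging matrix held it at 10.6, 41.2 and 12.8% of the adipocyte level by suffix, against 2.39, 13.7 and 8.49% for Ucp1. The Cfd percentage was above that of Ucp1 in each of these 5 groups, with intervals apart in all but aging suffix 3. The 2158 aging barcodes under the lower limits, all of suffix 1, also held more Cfd than Ucp1 by this measure, at 68.9% of the adipocyte level against 10.2%. The part of free RNA in the Cfd level of these nuclei was not tested.

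Rbp4 was in adipocyte nuclei at 29.3 CPM (28.1 to 30.6) in suffix 1 and 17.2 (15.7 to 18.8) in suffix 2, the latter at 0.588 times (0.531 to 0.649). Like Adipoq, and unlike Lep and Retn, it was thus lower in suffix 2. Its 38 UMIs in aging adipocyte nuclei gave 8.10 (4.43 to 13.6), 11.3 (6.72 to 17.9) and 8.71 (3.20 to 19.0) CPM, with overlapping intervals. Fibroblast or progenitor nuclei of suffix 2 held it at 44.8% of the adipocyte level, from 18 UMIs, and those of suffix 1 at 43.3%, from 14. In aging fibroblast or progenitor nuclei of the 3 suffixes together it was at 53.3% (ratio 0.237 to 1.09) from 10 UMIs, 8 of them of suffix 1, and Cfd was at 8.91% (0.0546 to 0.138) in the same nuclei.

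Rarres2 was low in adipocyte nuclei and high in stromal and vessel wall nuclei. In the WT and Ucp1-STX4KO matrix it was at 4.94 CPM (4.44 to 5.48) and 6.62 (5.70 to 7.64) in adipocyte nuclei, 57.1 (43.9 to 73.0) and 53.6 (44.6 to 63.8) in fibroblast or progenitor nuclei, and 87.8 (63.8 to 118) and 97.2 (70.4 to 131) in pericyte or smooth muscle nuclei. The last were at 17.8 times (12.7 to 24.3) and 14.7 times (10.3 to 20.6) the adipocyte level. Pericytes and smooth muscle cells wrap blood vessels, and in their gated nuclei 23.3 and 16.1% held a Rarres2 UMI against 3.24 and 3.15% of adipocyte nuclei, which are deeper. Macrophage-gated, endothelial and skeletal muscle nuclei were as low as adipocyte nuclei, at 8.37 (5.18 to 12.8), 3.77 (0.456 to 13.6) and 3.79 (1.39 to 8.26) CPM over both suffixes.

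The aging matrix also held more Rarres2 in pericyte or smooth muscle and fibroblast or progenitor nuclei than in adipocyte nuclei. It was at 80.8 (72.3 to 90.1), 80.0 (66.4 to 95.6) and 78.5 (66.2 to 92.3) CPM in pericyte or smooth muscle nuclei, so the 3 libraries did not differ beyond counting error. In fibroblast or progenitor nuclei it was at 89.3 (69.6 to 113), 42.7 (25.7 to 66.6) and 48.0 (33.6 to 66.5) CPM, and in endothelial nuclei, which line the vessels, at 10.2, 13.6 and 6.81. In suffix 1 its highest level was in Schwann nuclei, the glia of nerve, at 309 CPM (259 to 365, 135 UMIs in 261 nuclei), against 129 (70.4 to 216) and 77.8 (35.6 to 148) in suffixes 2 and 3, which have 48 and 32 such nuclei. The 2158 barcodes of suffix 1 under the lower limits held Rarres2 at 109 CPM (33 UMIs), below its level in Schwann nuclei, while endothelial nuclei were at 10.2. Those barcodes were at 23.6 times (10.7 to 59.2) the adipocyte level of that suffix. Its pericyte or smooth muscle nuclei were at 17.5 times (8.75 to 40.8), with overlapping intervals. The part of free RNA in the levels of suffix 1 was not tested. The Schwann cell genes Sox10 and Cdh19 were detected in this gate with 197 and 4935 UMIs, and 29.9% of its nuclei over the suffixes held a Rarres2 UMI at a median depth of 1640 UMIs. Pericyte or smooth muscle nuclei held 26.3% of all Rarres2 UMIs of this matrix and 13.6% of all UMIs, and nuclei without a single gate held 47.1 and 21.1%.

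Sncg and Agt were scarce. Sncg was at 0.181 CPM (13 UMIs) and 2.06 CPM (58 UMIs) in adipocyte nuclei of the WT and Ucp1-STX4KO matrix, and at 1.16, 5.04 and 10.2 CPM in the aging matrix, from 2, 8 and 7 UMIs. Endothelial nuclei held 52.6% of both the Sncg UMIs and all UMIs of that matrix, and pericyte or smooth muscle nuclei 24.6% of Sncg and 13.6% of all UMIs. In the latter it was at 15.9 (12.2 to 20.3), 10.6 (6.05 to 17.2) and 20.02 (14.1 to 27.6) CPM, and in endothelial nuclei at 6.67, 6.59 and 10.8. The barcodes of suffix 1 under the lower limits held 43.1 CPM (13 UMIs), above every type of that suffix given here, and the part of free RNA was not tested. Agt had 13 UMIs in all of the WT and Ucp1-STX4KO matrix and 29 in the aging matrix, of which 9 and 2 were in adipocyte nuclei. Its level in adipocyte nuclei of suffix 2 was 0.213 CPM (0.0783 to 0.465), so it was barely detectable at this depth, and no order of types can be given.

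**Figure D4:**
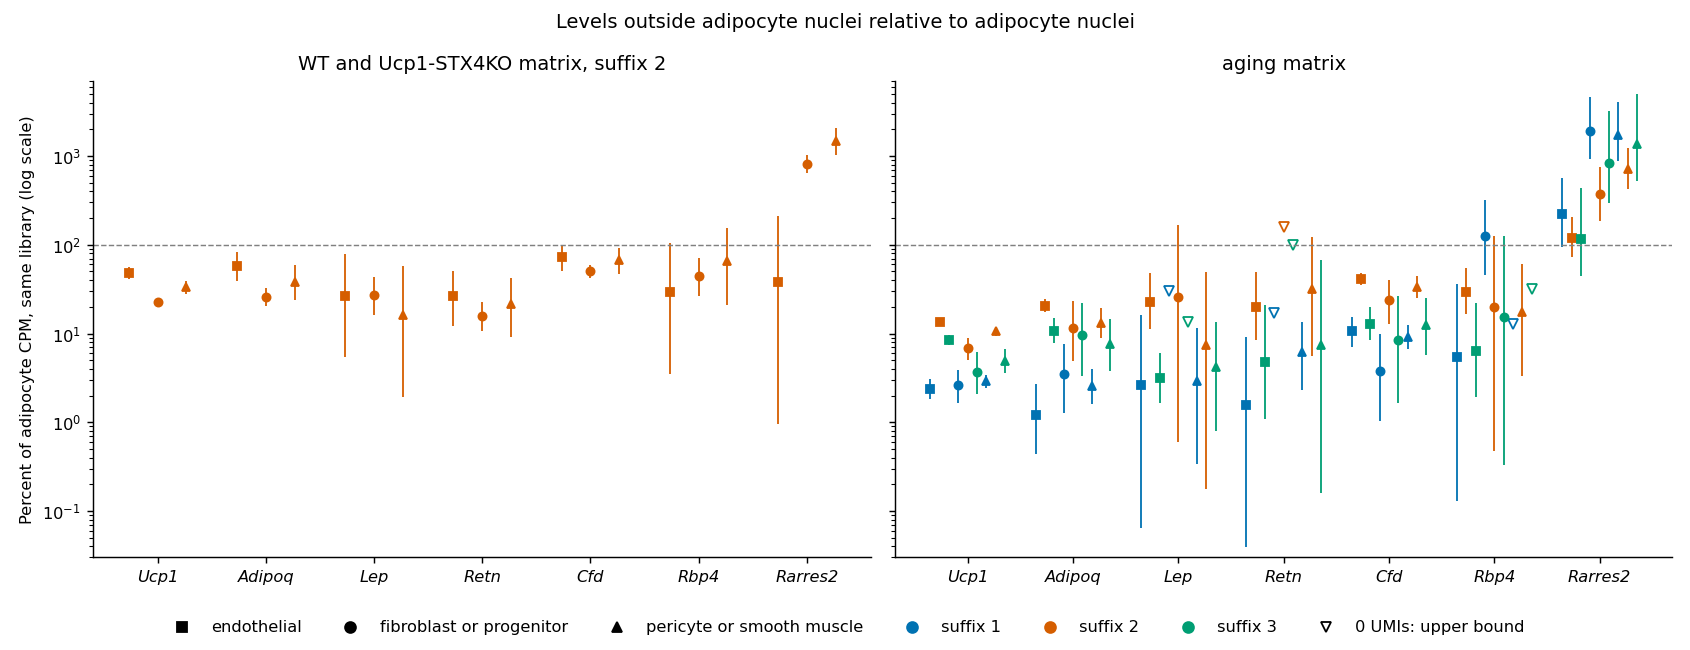
Level of 6 adipokine genes and Ucp1 in endothelial, fibroblast or progenitor and pericyte or smooth muscle nuclei, as a percentage of the adipocyte CPM of the same library (log axis), in suffix 2 of the WT and Ucp1-STX4KO matrix and in the 3 aging suffixes. Bars are exact conditional binomial 95% intervals, open triangles are upper bounds for 0 UMIs and the dashed line marks the adipocyte level. Rarres2 lies above the line in fibroblast or progenitor and pericyte nuclei, and Adipoq lies near Ucp1 below it.

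Over 25 profiles, each a nucleus type in 1 suffix with 50 or more nuclei, the genes whose log2(CPM + 1) was most correlated with each member among 11192 genes are named as a description. Profiles of a library share its depth and free RNA and are not independent. Adipoq was nearest to Pck1, an enzyme of glycerol synthesis in fat (Pearson r 0.970), Slc27a2 (0.969) and Ucp1 (0.963). Retn was nearest to Cyp2e1 (0.948), Ppargc1a (0.909) and Hacd2 (0.896). Lep was nearest to Abhd5, an activator of triglyceride breakdown (0.900), Acvr1c (0.893) and the beta-adrenergic receptor gene Adrb3 (0.886). Cfd was nearest to Ndufb3 (0.908), Cd1d1 (0.903) and Car3 (0.902), Rbp4 to Cpt2 (0.885), Serhl (0.867) and Ppp4r2 (0.842), and Rarres2 to A830082K12Rik (0.936), Rftn2 (0.933) and Enox1 (0.910). For Sncg no r passed 0.766, for Adamts1, Hspb1 and Sox4 in order, and Agt was too sparse to be placed. Between members r was 0.816 for Adipoq and Cfd, 0.793 for Adipoq and Rbp4, 0.755 for Adipoq and Lep and 0.727 for Retn and Cfd. Rarres2 had a negative r with every other member except Sncg (0.361).

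Of 28 other genes for secreted factors of fat, 14 reached 200 UMIs in the class comparison of the WT and Ucp1-STX4KO matrix, and their median ratio was 0.674. Slit2, an axon guidance protein, was the only 1 at least 2-fold higher, at 2.98 when pooled, though within the suffixes it was at 1.69 and 1.095, and Bmp8b, a growth factor of brown fat, the only 1 lower, at 0.477 when pooled but at 0.772 (0.407 to 1.34) and 0.778 (0.445 to 1.34) within the suffixes. Factors with their highest level in adipocyte nuclei of both matrices were Angptl4 and Angptl8, which inhibit lipoprotein lipase, Nampt, Nrg4, an EGF-family ligand of brown fat, and Vegfa. C1qtnf12 and Ptgds joined them in the WT and Ucp1-STX4KO matrix. Angptl4 was at 340 against 387 CPM in the class of suffix 1, a ratio of 0.880, and at 180 against 151 in suffix 2, a ratio of 1.20, where Retn and Lep were higher in both.

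Of 22 receptors and partners of the members, 8 reached 200 UMIs there, with a median ratio of 0.919. Cmklr1, the chemerin receptor, was the 1 gene at least 2-fold higher in the class, at 37.0 (24.5 to 56.6) in suffix 1 and 3.58 (2.78 to 4.67) in suffix 2, and none was lower when pooled. In adipocyte nuclei Cmklr1 was at 4.26 CPM, against 83.7 (72.8 to 95.8) in macrophage-gated and 68.9 (60.4 to 78.3) in fibroblast or progenitor nuclei. In adipocyte nuclei of suffix 1 alone Cmklr1 did not reach 200 UMIs. The macrophage and fibroblast lists were 2.42 and 3.22 times higher in the class of that suffix, and their part in the Cmklr1 ratio was not tested. Adipor2, a receptor of adiponectin, was highest in adipocyte nuclei of both matrices, at 2130 and 2091 CPM. Cdh13, the cell surface protein that binds adiponectin, was highest in endothelial nuclei, at 2009 and 2525 CPM, and in adipocyte nuclei of the WT and Ucp1-STX4KO matrix it was at 0.478 (0.245 to 0.841) in the class of suffix 1 and 0.495 (0.385 to 0.632) in that of suffix 2. Cap1, which binds resistin, was at 100.1 CPM (88.1 to 113) in macrophage-gated nuclei of the WT and Ucp1-STX4KO matrix, against 29.7 (28.6 to 30.7) in adipocyte nuclei. Agtr1a, a receptor of angiotensin II, was highest in pericyte or smooth muscle nuclei, at 680.4 and 569.7 CPM, while the precursor gene Agt was barely detected in any type.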

How the data were processed

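The authors sorted nuclei by flow cytometry, prepared 10x Genomics 3′ v3.1 libraries and aligned reads to mm10 with Cell Ranger 6.1.2. The submitters' processing notes also name Seurat 4.1.0. The files deposited by the authors hold unnormalised counts of UMIs for each gene in each barcode. The annotation release, the counting of introns and any depth equalisation are not given in the sources used here. The stated upper limits of 2000 UMIs and 3000 genes would leave 2763 and 18756 nuclei, so only the lower limits (200 UMIs, 100 genes) were applied.

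Gates needed 3 list UMIs and at least 10 per 10000 UMIs from 2 genes (adipocyte: 60, from 3 genes; aging endothelial: 30.3). The scoring rule was set after the marker distributions had been seen. No doublet caller was run, and 891 and 3194 nuclei past several gates were left out. Counts were summed per type and suffix and divided by total UMIs to give CPM, in pandas 2.3.3 and scipy 1.17.1 (Python 3.11.15). Ratios and their intervals were tested on simulated counts, and the gates were not. Genes with at least 200 UMIs entered counts of 2-fold differences. The named genes were the members, gate markers, Cyp2e1, Aldh1a1, Ucp1, listed factors past 2-fold or highest in adipocytes, and the 3 genes nearest each member. Stx4a, Cap1, Cdh13, Agtr1a and the remaining genes named were added after their values were seen. Cmklr2 is Gpr1 in the files. The members and lists were chosen with earlier results of these data known. Positions are from GENCODE vM21, promoters from RefSeq.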

Additional observations from a re-analysis of the deposited data

How the results depend on the processing

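The counts of members past 2-fold with Cyp2e1 or Aldh1a1 UMIs stayed within 1.5 times their value under a higher class minimum, each class gene alone, stricter gates and thinning, in the alternatives that gave a value. The count of members highest in adipocyte nuclei was less stable. In the WT and Ucp1-STX4KO matrix it went from 2 to 0 within the stated UMI range, to 1 with a stricter gate, with suffix 2 alone and, chosen after seeing the data, when other types kept nuclei that also pass the adipocyte gate, and to 5 with UMIs per nucleus, which also carry the greater depth of adipocyte nuclei. In the aging matrix it went from 2 to 1 within the stated range and with suffix 2 alone, and to 4 with suffix 1 alone. Among single ratios, Rbp4 turned to 1.25 in suffix 2 alone and Adipoq to 0.956 after thinning in the WT and Ucp1-STX4KO matrix, against 0.787 and 1.08. In the aging matrix Adipoq turned to 0.876 in suffix 2 alone, and Lep to 0.704 in suffix 3 alone and to 0 with the class taken from thinned counts. The cause was not tested. Within the stated range, which leaves 905 adipocyte nuclei of the WT and Ucp1-STX4KO matrix, the ratio of Retn went from 14.1 to 1.81 (1.05 to 3.03), of Cfd from 2.55 to 1.38 (0.971 to 1.93) and of Lep from 5.51 to 2.67 (1.01 to 6.75), so Retn and Cfd were no longer past 2-fold. In all, 72 single ratios stayed within the interval of the value reported and 77 moved beyond it without turning. Where no member reached 200 UMIs, as for the class and suffix counts within the stated range, an alternative gave no count. No paired analysis was possible because each condition has 1 library and no suffix is tied to a sample. Depth limits Agt, Sncg and all aging values by suffix.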
